A study of Homo sapiens with 9 samples.

Results

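The 4 genes described here encode enzymes that make fatty acids and phospholipids: ACLY, SCD, FADS2 and PCYT2. They were followed in the human neuroblastoma line LAN-5 after exposure to S100B, a calcium-binding protein that astrocytes release. Members were all probe sets that the platform annotation gives to these symbols. Each gene had 1, so they are 4 of the 8746 probe sets other than controls, and 4 of the 7713 genes with a symbol. The genes were chosen by their log2 values at 5 µM S100B against untreated cells, so those values are a description without a test.

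RNA was measured on 9 Affymetrix arrays, with 3 from untreated cells given culture medium alone, 3 from cells given 0.5 nM S100B and 3 from cells given 5 µM S100B. According to the series, replicates within each group were biological. The labels give no genotype, transgene or exposure time, and LAN-5 is a single line. All levels are the deposited values on a log2 scale, in which a difference of 1 is a doubling, and levels of different probe sets are not comparable with each other. Differences come from a limma fit of the 3 groups over 5830 probe sets, the brighter part of the table, with p-values adjusted by Benjamini-Hochberg and a threshold of 0.05. All 4 members lay above the intensity filter. In a bulk sample, fewer cells of a type and less RNA per cell cannot be told apart.

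Fatty acid synthesis starts in the cytosol, where citrate exported from mitochondria is cleaved to acetyl-CoA. Acetyl-CoA carboxylase and fatty acid synthase turn it into palmitate, elongases lengthen the chain and desaturases insert double bonds. The products are built into phospholipids, for which ethanolamine and choline are first activated as CDP conjugates. Many of these genes are targets of the SREBP transcription factors, whose cleavage falls when sterols are plentiful. SCD is also a known target of the oxysterol receptor LXR. Neurons and neuroblasts use these lipids for membranes and neurite growth.

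The RefSeq promoter table (GRCh38.p14) held windows for all 4 genes, each from 250 bases before to 50 after a transcription start, and 7 windows in all. They are shown because SREBP acts at lipid genes beside the factor NF-Y, which binds CCAAT. Whether either factor had a part in the array values was not tested. In the windows below the letters CCAAT, or ATTGG where they lie on the other strand, are in capitals. For genes with more than 1 window the window with the most of these letters is printed. The ACLY windows tied, and the first in the promoter table is printed.
SCD: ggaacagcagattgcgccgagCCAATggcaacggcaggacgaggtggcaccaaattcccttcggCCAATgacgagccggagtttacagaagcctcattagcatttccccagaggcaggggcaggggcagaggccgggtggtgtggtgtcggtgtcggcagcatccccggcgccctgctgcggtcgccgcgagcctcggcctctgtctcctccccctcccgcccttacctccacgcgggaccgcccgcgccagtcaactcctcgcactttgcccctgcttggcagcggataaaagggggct
FADS2: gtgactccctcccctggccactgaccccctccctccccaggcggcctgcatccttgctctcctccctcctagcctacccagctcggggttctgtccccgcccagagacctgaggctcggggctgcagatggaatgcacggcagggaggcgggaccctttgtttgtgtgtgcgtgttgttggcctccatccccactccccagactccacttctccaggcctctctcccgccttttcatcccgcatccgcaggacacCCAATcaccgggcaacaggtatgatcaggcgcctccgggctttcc
ACLY: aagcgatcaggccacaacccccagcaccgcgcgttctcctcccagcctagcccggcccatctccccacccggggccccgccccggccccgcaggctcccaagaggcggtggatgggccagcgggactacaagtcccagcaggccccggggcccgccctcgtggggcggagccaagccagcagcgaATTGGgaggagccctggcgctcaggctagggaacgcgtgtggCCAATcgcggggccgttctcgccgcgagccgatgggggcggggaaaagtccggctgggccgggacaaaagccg
PCYT2: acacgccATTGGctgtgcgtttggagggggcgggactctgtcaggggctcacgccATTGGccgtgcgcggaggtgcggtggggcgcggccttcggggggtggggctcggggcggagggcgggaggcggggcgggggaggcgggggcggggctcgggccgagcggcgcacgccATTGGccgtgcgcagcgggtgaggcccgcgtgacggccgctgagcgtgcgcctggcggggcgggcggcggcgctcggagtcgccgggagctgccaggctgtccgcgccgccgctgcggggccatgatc
These windows are chr10:100346983-100347282 on the plus strand for SCD, chr11:61816154-61816453 on the plus strand for FADS2, chr17:41918973-41919272 on the minus strand for ACLY and chr17:81911350-81911649 on the minus strand for PCYT2.

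The letters CCAAT on either strand stood in at least 1 window of 4 of the 4 genes, against 39.7% of the 27305 genes in the promoter table. The PCYT2 window held 3, starting 243, 195 and 78 bases before the start. All 3 are ATTGG, and 3 or more occur in 1 window of 3.92% of genes. The SCD window held 2, at 229 and 186 bases before the start. The ACLY window held 2, on opposite strands at 65 and 23 bases before the start, and 2 or more occur in 1 window of 12.9% of genes. The other ACLY window held the same 2, at 136 and 94 bases before its own start. The FADS2 window held 1, starting 6 bases after the start of the transcript, and the other FADS2 window held 0, as did the other PCYT2 window. The GC-box letters GGGCGG on either strand, where SP1 binds, were found in 6 of the 7 windows and in 1 or more windows of 48.3% of genes. The PCYT2 window held 7 of them and the ACLY window 4. The sterol element letters TCACNCCAC, the E-box CACGTG and the LXR element of direct repeats (DR4), each searched on both strands, were in 0 of the 7 windows. That is 0 of the 4 genes, while 1.39%, 8.77% and 0.0256% of genes in the promoter table held them. Overlaps between different motifs were not counted separately. The windows are GC-rich, at 65.0% to 82.7% GC against a median of 58.7%, and a match of letters is not a binding site.

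Cells given 5 µM S100B had lower means of all 4 genes than untreated cells. The levels were 79.3% of untreated for SCD, 76.0% for FADS2, 80.2% for ACLY and 80.9% for PCYT2. The 3 arrays at 5 µM lay below all 3 untreated arrays for FADS2, ACLY and PCYT2 and overlapped them for SCD. That absence of overlap with the treated group lower, in 3 of the 4 genes, held for 9.47% of all tested probe sets. None of the 4 was among the 17 probe sets, 0.292% of those tested, that passed limma's adjusted threshold, while 4 of the 4 had an unadjusted p under 0.05, as did 399 of all. Since these values chose the genes, the counts are not evidence about them.

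**Figure D1:**
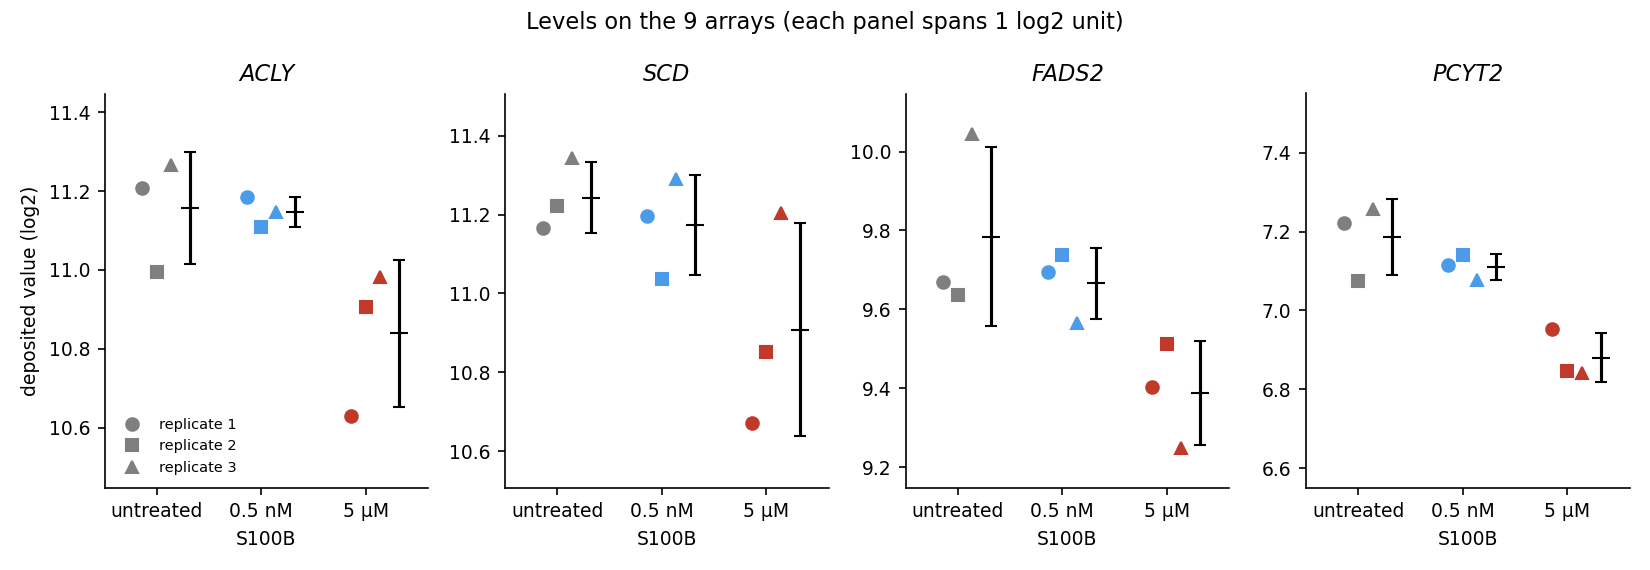
Deposited log2 levels of ACLY, SCD, FADS2 and PCYT2 on each array by S100B dose, with circles, squares and triangles for replicates 1, 2 and 3 and bars for the mean and SD of 3 arrays. The 5 µM arrays lie lowest for ACLY, FADS2 and PCYT2, and the third 5 µM array of SCD, at 11.20, reaches the untreated arrays.

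ACLY, the ATP citrate lyase that supplies cytosolic acetyl-CoA, stands at the head of the pathway. Its log2 levels were 11.21, 10.996 and 11.27 in untreated cells, 11.19, 11.11 and 11.15 at 0.5 nM and 10.63, 10.91 and 10.98 at 5 µM. The 5 µM arrays were all lower than the others, but the highest of them lay only 0.0139 under the lowest untreated array, replicate 2. The mean was 10.84 ± 0.19 at 5 µM against 11.16 ± 0.14 in untreated cells (SD, n = 3 each), a difference of -0.32 ± 0.10 (SE, 95% interval -0.53 to -0.11). The 5 µM replicate 1 was the lowest array by a wide margin, and without it the difference was -0.21.

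SCD, the stearoyl-CoA desaturase, makes monounsaturated oleate and palmitoleate from saturated chains. Its log2 levels were 11.17, 11.22 and 11.34 in untreated cells, 11.20, 11.04 and 11.29 at 0.5 nM and 10.67, 10.85 and 11.20 at 5 µM. Replicates 1 and 2 at 5 µM were the lowest of the 9 arrays, and replicate 3 at 5 µM lay above untreated replicate 1. The means were 10.91 ± 0.27 at 5 µM and 11.24 ± 0.09 in untreated cells (SD, n = 3 each), a difference of -0.33 ± 0.12 (SE, 95% interval -0.60 to -0.07). Leaving out the 5 µM replicate 1 gave -0.22, and leaving out the 5 µM replicate 3 gave -0.48. The size of the SCD difference thus depended on which treated array was kept. Replicate 3 was the highest SCD array in the untreated and 0.5 nM groups too.

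FADS2, the delta-6 desaturase, carries out the first desaturation in making long polyunsaturated fatty acids such as arachidonic and docosahexaenoic acid. Its log2 levels were 9.67, 9.64 and 10.05 in untreated cells, 9.69, 9.74 and 9.57 at 0.5 nM and 9.40, 9.51 and 9.25 at 5 µM. All 3 arrays at 5 µM were lower than the other 6 arrays, and untreated replicate 3 stood above the rest. The means were 9.39 ± 0.13 at 5 µM and 9.78 ± 0.23 in untreated cells (SD, n = 3 each), a difference of -0.40 ± 0.11 (SE, 95% interval -0.64 to -0.16). Without untreated replicate 3 the difference was -0.26.

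PCYT2, the CTP:phosphoethanolamine cytidylyl transferase, controls the CDP-ethanolamine route to phosphatidylethanolamine. Its log2 levels were 7.22, 7.08 and 7.26 in untreated cells, 7.11, 7.14 and 7.08 at 0.5 nM and 6.95, 6.85 and 6.84 at 5 µM. The 5 µM arrays were the lowest 3 of 9, and the gap to the lowest untreated array was 0.12. The mean was 6.88 ± 0.06 at 5 µM against 7.19 ± 0.10 in untreated cells (SD, n = 3 each), with a difference of -0.31 ± 0.06 (SE, 95% interval -0.44 to -0.17). It was the tightest of the 4, and leaving out any 1 array kept the difference between -0.36 and -0.27.

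The probe sets of ACLY, SCD and FADS2 carry the _s_at suffix, which marks sets whose probes may also fit other transcripts, and the annotation names 1 gene for each. By size of the difference at 5 µM, counted from the largest decrease over the 5830 tested probe sets, FADS2 stood at rank 24, SCD at 32, ACLY at 38 and PCYT2 at 46. The median difference over all tested probe sets was -0.0237, and 5% of them lay below -0.17. The genes were chosen by these differences, so the ranks follow from the choice and are not evidence about the genes.

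The 0.5 nM arrays did not enter the values that chose the genes, but the untreated arrays did. Genes chosen for a low difference from those 3 arrays tend to have high untreated values, so the differences at 0.5 nM are not independent of the choice and lean downward. None of the 4 genes passed at 0.5 nM against untreated cells (limma's adjusted p = 0.9999 for each), 0 had an unadjusted p under 0.05 and 0 had arrays without overlap, against 6.98% of all tested probe sets. Over all probe sets 0 passed there, 0.0% of those tested, and 192 had an unadjusted p under 0.05. The 4 means were below those of untreated cells, as were 59.1% of all tested probe sets, and the shared untreated arrays favour that direction. The differences were -0.0096 for ACLY (95% interval -0.22 to 0.20), -0.07 for SCD (-0.33 to 0.20), -0.12 for FADS2 (-0.36 to 0.12) and -0.08 for PCYT2 (-0.21 to 0.06). The signs of ACLY and FADS2 turned when some arrays were left out, and that of ACLY also after quantile normalization and median centring. The lower ends of these intervals, -0.21 to -0.36, show the decreases that 3 arrays a group could not exclude at 0.5 nM.

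**Figure D2:**
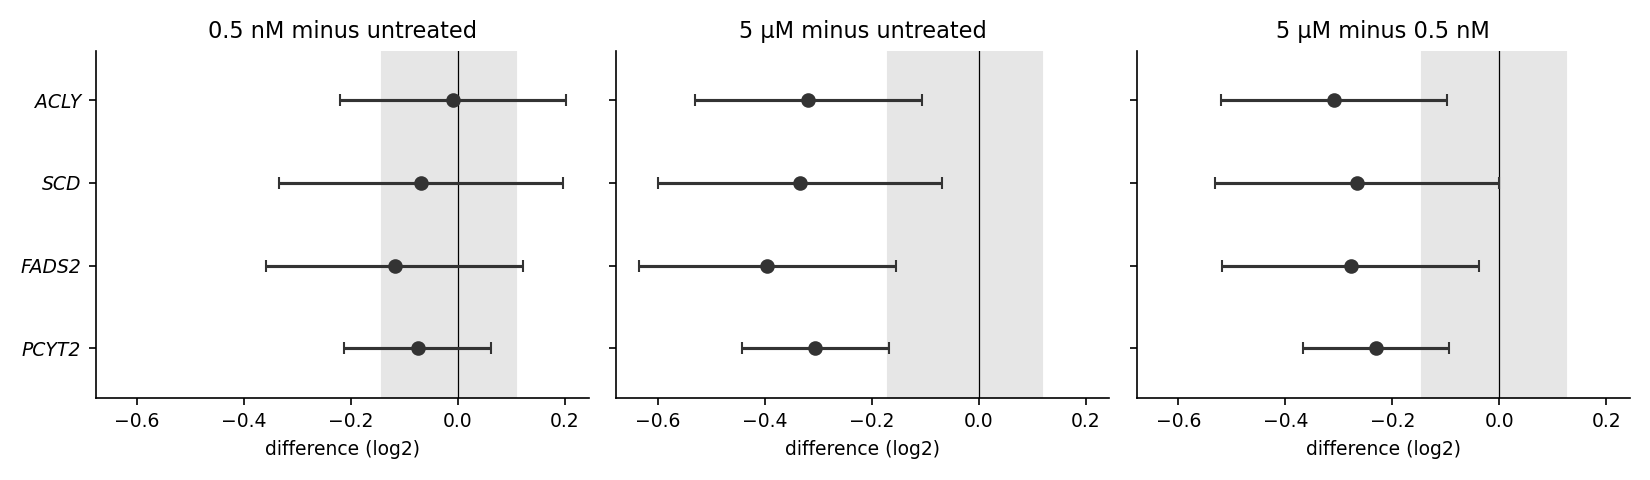
Log2 differences of the 4 genes between pairs of groups, with 95% intervals from the limma fit and grey bands for the range from the 5th to the 95th percentile of all tested probe sets. All 4 points lie left of the band for 5 µM minus untreated, the values that chose the genes, and inside it for 0.5 nM minus untreated.

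The doses were also set against each other. At 5 µM the means were lower than at 0.5 nM, with log2 differences of -0.31 ± 0.10 for ACLY, -0.27 ± 0.12 for SCD, -0.28 ± 0.11 for FADS2 and -0.23 ± 0.06 for PCYT2 (SE, n = 3 per group). Without the 5 µM replicate 1 the difference was -0.15 for SCD and -0.20 for ACLY, and without the 5 µM replicate 3 it was -0.41 for SCD. These values share the 5 µM arrays with the comparison that chose the genes, so they are a description too. The 5 µM arrays lay below all 0.5 nM arrays for ACLY, FADS2 and PCYT2, a pattern found in 4.63% of tested probe sets. For SCD the 5 µM replicate 3, at 11.20, lay inside the range of the 0.5 nM arrays. The order of the group means was the same in all 4 genes, highest in untreated cells, then 0.5 nM and then 5 µM. The first 2 of these groups overlapped in each gene, and for ACLY their means differed by only -0.0096. The signs of that step for ACLY and FADS2 turned in some alternative fits. The choice of genes favours this order, and its share among all tested probe sets was not counted. Of the 15 probe sets that passed between the doses, 0.257% of those tested, 0 were members, while 3 of the 4 had an unadjusted p under 0.05, as did 271 of all.

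Among themselves the 4 genes fell into 2 pairs by Pearson r over the arrays, but not by rank. SCD and ACLY had a Pearson r of 0.85 over the 9 arrays (Spearman rho 0.62), and 0.70 between their deviations from group means. FADS2 and PCYT2 had an r of 0.86 (rho 0.92), and 0.58 between their deviations. Between the pairs the r of the deviations ran from -0.37 for SCD and PCYT2 to 0.23 for FADS2 and ACLY. Over the 9 arrays the r between the pairs ran from 0.46 for SCD and FADS2 to 0.73 for ACLY and PCYT2. By rank, ACLY had a higher rho with PCYT2 (0.88) and with FADS2 (0.80) than with SCD. The 5 µM arrays show the difference between the pairs most plainly. Replicate 1 at 5 µM held the lowest SCD and ACLY levels of its group and the highest PCYT2 level, while replicate 3 held the highest SCD and ACLY levels and the lowest FADS2 and PCYT2 levels. The points share arrays and the group difference that chose the genes, so the correlations are given as a description.

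**Figure D3:**
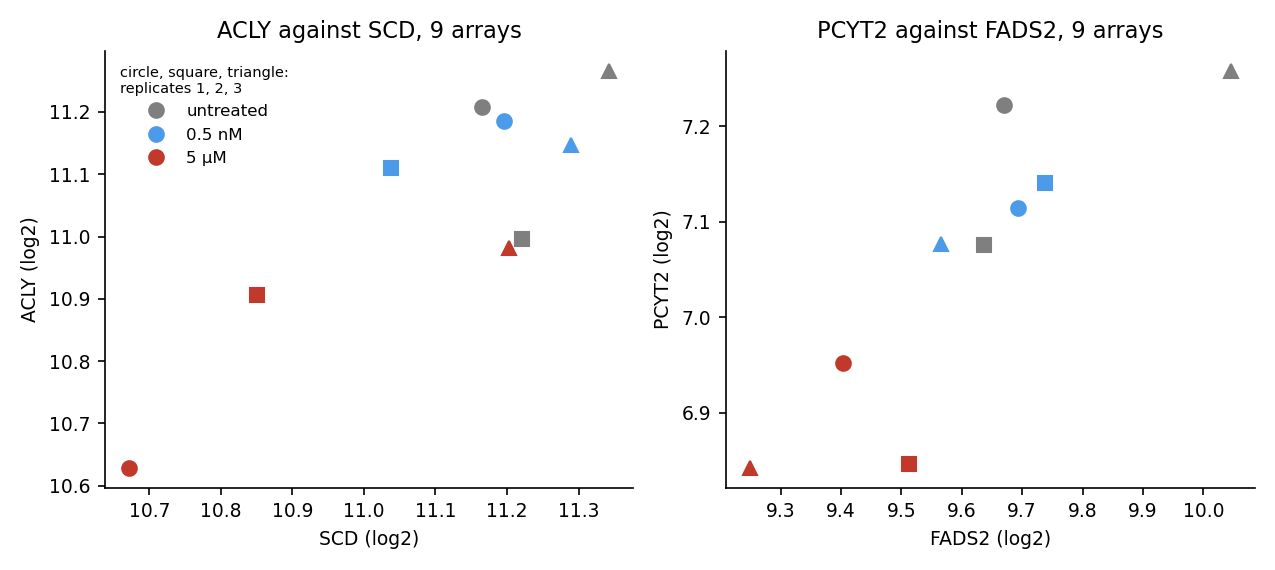
Log2 levels of ACLY against SCD and of PCYT2 against FADS2 on the 9 arrays, coloured by group with symbols for the replicate number. Within the 5 µM arrays ACLY ascends with SCD (10.63, 10.91 and 10.98 at SCD levels of 10.67, 10.85 and 11.20), while untreated replicate 3 is the upper end in both panels.

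The genes whose pattern over the 9 arrays was most like each member were found by Pearson r among 5225 probe sets with a single gene symbol. For PCYT2 they were the mitotic kinase PLK1 (r = 0.93), PCDHB6 (0.93), PLEC (0.92) and 2 enzymes of cholesterol synthesis, IDI1 (0.91) and HMGCS1 (0.91). Between deviations from group means their r was lower, at 0.69, 0.59, 0.58, 0.41 and 0.52 in that order. For ACLY they were the receptor GFRA2 (0.93), the protease MMP2 (0.92), GP1BA (0.91), SINHCAF (0.91) and the squalene epoxidase SQLE (0.90). For SCD they were SEMA4D (0.95), the polymerase subunit POLA1 (0.94), FOXO3 (0.92), SNRPA (0.91) and NOTCH2 (0.91), and for FADS2 CBFB (0.94), GPR50 (0.91), SLC2A6 (0.91), GCAT (0.91) and FOLR2 (0.90). The closest other member was ACLY at position 29 for SCD, SCD at 26 for ACLY, PCYT2 at 18 for FADS2 and FADS2 at 25 for PCYT2. For the genes listed beside SCD, FADS2 and ACLY the r of the deviations ran from 0.76 to 0.93. An r over 0.9 was reached by 9 probe sets for SCD and by 5 for each of the others. That r includes the group difference that chose the members, and the values are given as a description of these 9 arrays.

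The other genes of fatty acid synthesis were taken from a list of 20 genes from textbook knowledge. Of the 7 measured above the filter besides ACLY, 0 rose and 0 fell at 5 µM by limma, 1 had an unadjusted p under 0.05, and 7 of 7 had a lower mean, against 61.9% of all tested probe sets. Their median difference was -0.14. Fatty acid synthase FASN, which makes palmitate, had the most negative value, -0.50 ± 0.24 (SE, adjusted p = 0.74). Its log2 levels were 8.73, 9.07 and 9.54 at 5 µM against 9.36, 9.33 and 10.12 in untreated cells, and the third 5 µM array overlapped the untreated ones. IDH1, the cytosolic isocitrate dehydrogenase that yields NADPH, had 9.68, 9.78 and 9.77 at 5 µM against 10.05, 10.003 and 9.998 in untreated cells. Those arrays did not overlap, and IDH1 did not pass at -0.27 ± 0.07 (adjusted p = 0.324). PGD, another source of NADPH in the pentose phosphate route, was at -0.14 ± 0.06, pyruvate carboxylase PC at -0.16 ± 0.09, acetyl-CoA carboxylase ACACA at -0.09 ± 0.11, the acyl carrier protein NDUFAB1 at -0.07 ± 0.06 and malic enzyme ME1 at -0.04 ± 0.12. At 0.5 nM 0 of the 7 passed, 0 had an unadjusted p under 0.05, and the median was -0.0091.

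In the list of elongation and desaturation genes, 9 were measured above the filter besides SCD and FADS2. None rose or fell at 5 µM by limma, 2 had an unadjusted p under 0.05, 5 of 9 had a lower mean and the median difference was -0.0166. CYB5B, an outer mitochondrial cytochrome b5, was at -0.31 ± 0.09 (adjusted p = 0.456). Its levels were 7.73, 7.83 and 7.77 at 5 µM against 8.06, 8.15 and 8.04 in untreated cells, without overlap. HSD17B12, the ketoacyl reductase of elongation, was at -0.20 ± 0.07 (adjusted p = 0.582) and the elongase ELOVL5, which acts on the products of FADS2, at -0.15 ± 0.07 (adjusted p = 0.729), both also without overlap. The desaturase-like FADS3 was at -0.0166 ± 0.06. CYB5A, the endoplasmic reticulum cytochrome b5 that passes electrons to the desaturases, was at 0.0018 ± 0.10 and its reductase CYB5R3 at 0.09 ± 0.08. The elongase ELOVL4 was at 0.04, the enoyl reductase TECR at -0.05 and CYB5R1 at 0.11. At 0.5 nM 0 of the 9 passed and 0 had an unadjusted p under 0.05.

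Around PCYT2, the CDP-ethanolamine and CDP-choline list had 8 other genes above the filter. At 5 µM 0 rose and 0 fell by limma, and 2 had an unadjusted p under 0.05. A lower mean was found in 8 of 8, against 61.9% of all tested probe sets, with a median of -0.07. With PCYT2 included the median was -0.08, and it was -0.17 without untreated replicate 1, -0.12 without the 5 µM replicate 2 and -0.05 without the 5 µM replicate 1 or untreated replicate 2. The choline kinases stood at the low end. CHKA had 6.84, 6.80 and 6.92 at 5 µM against 7.15, 7.05 and 7.13 in untreated cells, a difference of -0.26 ± 0.07 without overlap (adjusted p = 0.407). CHKB, which also phosphorylates ethanolamine, was at -0.17 ± 0.08 (adjusted p = 0.707). PCYT1A, the enzyme with the same step in the choline branch and so the counterpart of PCYT2, was at -0.08 ± 0.06 (adjusted p = 0.832). The transferases that end the branches were at -0.12 ± 0.10 for CHPT1 and -0.06 ± 0.08 for CEPT1. The phosphatidylserine synthases PTDSS1 and PTDSS2 were at -0.05 and -0.0098, and PEMT, which methylates phosphatidylethanolamine to phosphatidylcholine, at -0.0070. At 0.5 nM 0 of the 8 passed, 0 had an unadjusted p under 0.05 and the median was -0.06.

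**Figure D4:**
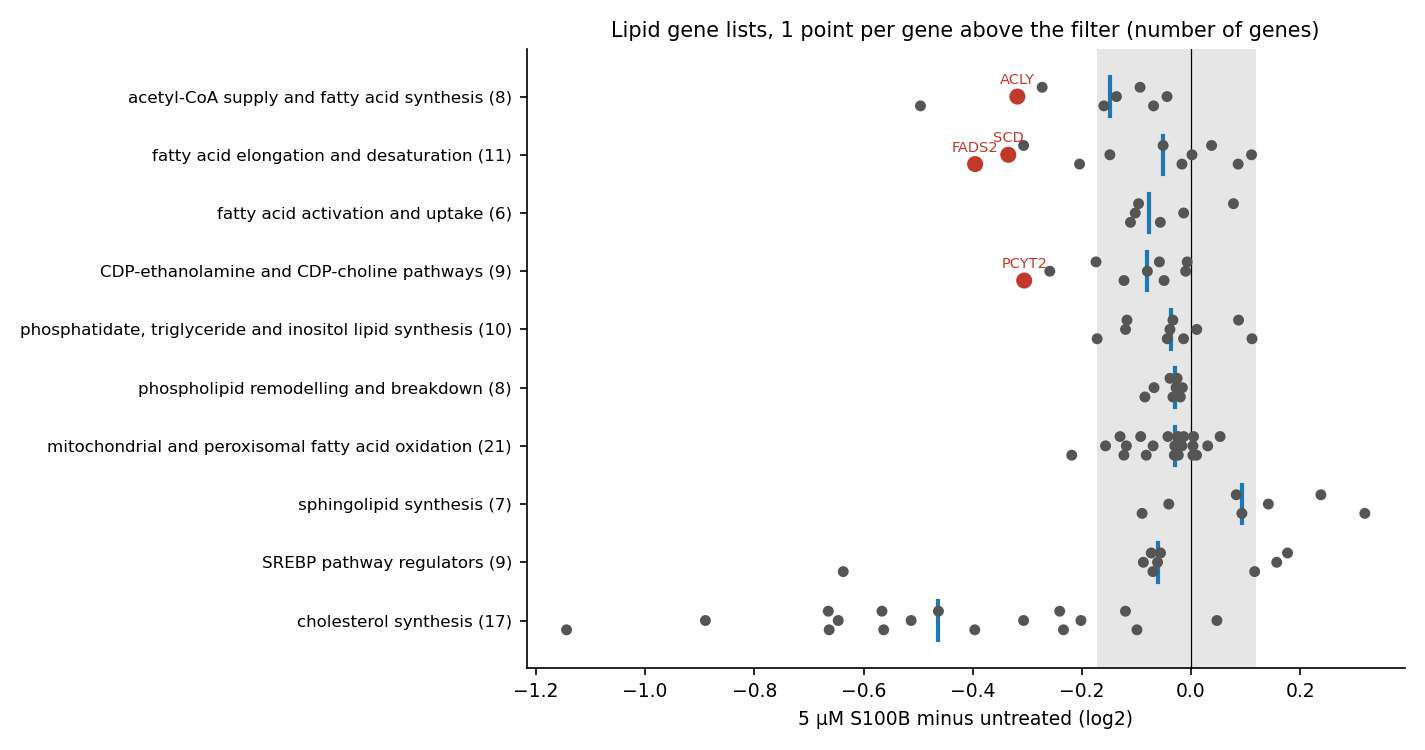
Difference between 5 µM S100B and untreated cells for each gene of 10 lipid lists that lay above the filter, in log2 units, with the 4 members in red, a blue line at each list's median and a grey band from the 5th to the 95th percentile of all tested probe sets. Cholesterol synthesis has a median of -0.46, and the medians of the other lists lie within the band.

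Further lists held no gene that passed at 5 µM and had medians near that of all probe sets. Phosphatidate, triglyceride and inositol lipid genes, 10 in number, had a median of -0.04, with AGPAT2, which makes phosphatidate, at -0.12, the phosphatidylglycerophosphate synthase PGS1 at 0.11 and AGPAT1 at -0.17. Genes of phospholipid remodelling and breakdown had -0.03 over 8, all 8 with a lower mean, and PLA2G2A was at -0.08. Fatty acid activation and uptake genes had -0.08 over 6, with the acyl-CoA binding protein DBI at -0.11. Fatty acid oxidation genes had -0.03 over 21, with the carnitine palmitoyltransferase CPT1A at -0.16 and the thioesterase ACOT7 at -0.13. In these 4 lists together, 2 genes had an unadjusted p under 0.05, both of them in the oxidation list.

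Regulators of the SREBP pathway and genes of cholesterol synthesis are given as background, and SREBP control of the members was not tested. Of 9 measured SREBP pathway regulators, 1 fell and 0 rose at 5 µM. INSIG1, which retains the SREBP complex in the endoplasmic reticulum, differed by -0.64 ± 0.09 (adjusted p = 0.0162), and passed in 4 of the 9 fits that left out 1 array. It was lost without 5 µM replicates 1 and 3 (adjusted p = 0.0808 and 0.0602) and without untreated replicates 1, 2 and 3 (0.102, 0.0802 and 0.119), and in an unmoderated test (0.233). SREBF1, whose SREBP-1c product drives fatty acid genes, was at 0.16 ± 0.08 (adjusted p = 0.746) and SREBF2, of the cholesterol genes, at -0.09 ± 0.07 (adjusted p = 0.839). MYLIP, a ubiquitin ligase for the LDL receptor, was at 0.18 ± 0.06 and RNF139, another ubiquitin ligase, at 0.12 ± 0.08. The protease MBTPS1, which cleaves SREBP, was at -0.07 ± 0.06, the LXR gene NR1H3 at -0.06 ± 0.06, its partner RXRA at -0.06 ± 0.06 and the sterol transporter NPC1L1 at -0.07 ± 0.09. None of these 8 passed. Of 17 cholesterol synthesis genes 9 fell, 0 rose and the median was -0.46, against a median of -0.33 for the 4 members. The 9 became 3 without untreated replicate 1 or untreated replicate 3, 4 without 5 µM replicate 1 or 2, and 6 without untreated replicate 2. It was 3 with only the compared groups fitted and 0 with an unmoderated test. Whether the cholesterol genes and the members differ in size of change was not tested.

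Features of the arrays that could move with the groups were checked once. Pairs of arrays of the same group correlated at 0.993 to 0.997, and pairs of different groups at 0.994 to 0.997. The signal of spiked-in RNA was averaged over 18 probe sets. Group means were 9.28 ± 0.21 at 5 µM, 9.34 ± 0.10 at 0.5 nM and 9.02 ± 0.28 in untreated cells (SD, n = 3 each). A part of this group difference in the results was not tested. By array the signal was 8.70 on untreated replicate 1 and 9.04 to 9.45 on the other arrays. Without that array the 5 µM difference was -0.37 for SCD, -0.45 for FADS2, -0.29 for ACLY and -0.29 for PCYT2. The 3' minus 5' signal of ACTB, a sign of RNA integrity, averaged -0.0081 ± 0.13 at 5 µM and -0.0033 ± 0.14 in untreated cells (SD, n = 3 each). That of GAPDH averaged 0.30 ± 0.09 at 5 µM and 0.26 ± 0.04 in untreated cells. Of the noradrenergic neuroblast markers 12 of 13 measured lay above the filter, among them PHOX2A, HAND2, GATA3, DBH and MYCN, while tyrosine hydroxylase TH did not. Markers of other cell types were mixed. The filter kept 5830 of the 8746 probe sets, so a place above it does not by itself show that a cell type was present. Of 7 measured glial markers 4 lay above the filter (ALDH1L1, SLC1A3, SOX10 and MBP) and GFAP, AQP4 and MOG below it. Of 5 leukocyte markers CD3E, CD79A and ITGB2 lay above and PTPRC and CD14 below, and of 6 mesenchymal markers COL1A2, PDGFRB and VIM lay above and COL1A1, COL3A1 and LUM below. Of 7 adipocyte and hepatocyte markers PLIN1, CIDEC, APOA1 and TTR lay above and ADIPOQ, LEP and ALB below. The summed level of the 7 measured adipocyte and hepatocyte markers was 8.93 to 9.05 log2 at 5 µM and 8.98 to 9.07 in untreated cells, and its part in the results was not tested.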

How the data were processed

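The authors deposited log2 values, 1 for each probe set on each array. Per the submitters' processing notes GCRMA was used, and its version is not given in the sources used here. GCRMA corrects background, normalises between arrays and summarises probes, and may compress differences of dim probe sets. The log2 scale was inferred from the range of the deposited values, from 4.37 to 14.5.

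Of 8793 probe sets, 47 controls were taken out and 2916 of the dimmest by mean over the 9 arrays (5.95 or lower) were left out. Symbols came from the platform annotation, updated by Entrez identifier through RefSeq, and 7840 probe sets had 1 symbol. Groups were fitted with limma 3.58.1 (lmFit, eBayes) in R 4.3.3 in 1 model of 9 arrays without covariates, and tested on simulated data. A gene list used the brightest probe set per gene. Intervals and SEs are those of the fit, SDs are over 3 arrays, and the number of arrays limits the precision.

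Named genes were the members, every gene above the filter of the synthesis, desaturation, CDP and regulator lists, up to 4 genes with the smallest p of each other list, and the 5 genes most like each member. The members and lists were chosen with earlier results of these data known. Alternatives were filter, normalization, block, groups fitted, moderation and left-out arrays. Motif letters were matched in RefSeq promoter windows of GRCh38.p14. The array values have no stated build.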

Additional observations from a re-analysis of the deposited data

How the results depend on the processing

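At 5 µM the difference of each of the 4 genes, against untreated cells and against 0.5 nM, kept its sign. That covers all 6 other settings and all 9 fits without 1 array, but many of these could not alter it. Filter, replicate block and groups fitted leave a difference of group means unchanged, as does leaving out an array of the third group. Only quantile normalization, median centring and leaving out an array of the compared groups could move it. The 5 µM values also chose the genes, and the cause of each shift was not tested. At 0.5 nM against untreated cells, FADS2 ran from -0.19 to 0.0128 without 1 array, turning sign without untreated replicate 3. ACLY ran from -0.0901 to 0.0451, and became 0.0010 after quantile normalization, 0.0176 after median centring, 0.0091 without 0.5 nM replicate 2, 0.0163 without untreated replicate 1 and 0.0451 without untreated replicate 3, and neither gene passed in any setting run. The count of probe sets past the threshold at 5 µM against untreated cells was 7 with only the compared groups fitted and 1 with an unmoderated test, and 4 to 17 over fits without 1 array. Between the doses it was 4 and 1 in those settings and 3 to 14 without 1 array. These fits have fewer samples or no moderation. The count was 0 at 0.5 nM in every setting run. With the replicate block the counts were 15, 0 and 15. Deviations of same-numbered arrays correlated at -0.00035 to 0.33, and those of differently numbered arrays of different groups at -0.37 to 0.35. The replicate 3 arrays correlated at 0.298 to 0.330 with each other, and negatively with the other numbers in other groups. The labels state no pairing, so the numbers were not treated as pairs, and a shared replicate effect was not tested. Of the medians of gene lists, 19 of 396 alternatives moved by more than the spread between replicates. Signal over background was not assessed.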

Other observations

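Outside the synthesis genes, a target of the receptor LXR rose at 5 µM. ABCG1, which exports cholesterol from cells and is a known LXR target as SCD is, had log2 levels of 6.47, 6.73 and 6.62 at 5 µM against 5.42, 5.42 and 5.60 in untreated cells. It lay below the intensity filter by its mean over 9 arrays, 5.89, and was fitted with all 8746 probe sets. The groups did not overlap, and the difference was 1.13 ± 0.12 (SE, adjusted p = 0.00801 by limma, 3 arrays a group), the reverse direction to the SCD value of -0.33. It was also higher at 5 µM than at 0.5 nM, by 1.01 ± 0.12 (adjusted p = 0.0174). In fits chosen after seeing the data that left out 1 array, ABCG1 passed against untreated in 6 of 9, with differences of 1.07 to 1.20. It did not pass without 5 µM replicate 2 (adjusted p = 0.0531), untreated replicate 1 (0.0787) or untreated replicate 2 (0.0603). Between the doses it passed in 5 of 9, and not without 5 µM replicates 1, 2 or 3 (0.0509, 0.0986 and 0.056) or 0.5 nM replicate 2 (0.103). Of the 6 other LXR targets above the filter 0 passed. MYLIP, which degrades the LDL receptor, was at 0.18 ± 0.06 without overlap (adjusted p = 0.547). The exporter ABCG4 at -0.19 ± 0.06 (adjusted p = 0.569) and APOE at -0.14 ± 0.06 (adjusted p = 0.707) were lower, also without overlap. The LXR targets below the filter besides ABCG1 were at 0.06 ± 0.08 and 0.07 ± 0.07, both with overlap.

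Among the lipid lists, sphingolipid genes had the highest median at 5 µM, 0.09 over 7 genes, against -0.0237 over all tested probe sets, and 0.03 without untreated replicate 1. None passed by limma and 2 had an unadjusted p under 0.05. UGCG, which makes glucosylceramide, had 8.08, 8.05 and 8.32 at 5 µM against 7.92, 7.73 and 7.84 in untreated cells, a difference of 0.32 ± 0.09 without overlap (adjusted p = 0.439). CERT1, which carries ceramide to the Golgi, was at 0.24 ± 0.09 (adjusted p = 0.68).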
